A study of Mus musculus with 6 samples.

Results

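The unfolded protein and stress response genes described here are 10 mouse genes: the kinase gene Eif2ak3, the transcription factor genes Atf4, Atf3, Ddit3 and Xbp1, the pseudokinase gene Trib3, the enzyme genes Chac1 and Asns, the chaperone gene Hspa5 and the stress-inducible Sesn2. They were taken as a fixed list, and every CpG cytosine read at least 6 times in all 6 libraries was collected from 5000 bp before the annotated 5′ end to the end of each gene. This gave 357 of the 646645 cytosines shared by the libraries, with all 10 genes represented. Of these, 171 lay in promoters (1000 bp before to 500 bp after the 5′ end), 34 in upstream flanks (from 5000 bp before it to the promoter) and 152 in gene bodies (from the promoter to the gene end). Atf3 was singled out when the list was drawn up because its annotated 5′ end is methylated, so promoter levels are described and the Atf3 promoter is not tested.

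The unfolded protein response begins at the endoplasmic reticulum, where the chaperone BiP (gene Hspa5) is drawn away from its sensors when misfolded proteins build up. The sensor PERK (gene Eif2ak3) phosphorylates the translation factor eIF2alpha, which lowers general protein synthesis but favours translation of ATF4, and ATF4 with CHOP (gene Ddit3) and ATF3 activates genes for amino acid supply, redox balance and, under lasting stress, cell death. The sensor IRE1 acts separately by splicing Xbp1 RNA. In vertebrates, promoters of widely used genes commonly lie in CpG islands that carry little methylation, while CpGs in gene bodies are mostly methylated.

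DNA came from the full cortex of mouse embryos of strain C57BL/6 at E16. The 3 control libraries are labelled Uhrf1 +/- and the 3 conditional knockout (cKO) libraries Uhrf1 -/-. In the study, Emx1-Cre deletes Uhrf1, whose protein brings the maintenance methyltransferase Dnmt1 to newly copied DNA, and both groups carry that Cre. The controls are thus heterozygous for Uhrf1 and are not wild type. Emx1-Cre acts in the dorsal telencephalon, so interneurons, microglia and vessel cells of the cortex keep their Uhrf1 alleles. The assay was oxidative reduced representation bisulfite sequencing (Ox-RRBS), which reads CpGs near CCGG sites and, after oxidation of 5-hydroxymethylcytosine, counts only 5-methylcytosine (5mC). The files hold methylation levels only, so the cell types present could not be checked by their transcripts, and Uhrf1 exon 4, the deleted exon, had 0 listed cytosines in any library. Nothing in the labels ties a library to a separate embryo or litter, so the tests measure the spread between these libraries.

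Coverage summed over all listed cytosines ran from 18238737 to 31019082 reads per library, and over the 357 member cytosines from 7228 to 12708. The library labelled control replicate 1 stood apart: its mean level over all shared cytosines was 15.6%, where the cKOs read 15.8% to 19.6% and the other controls 39.4% and 38.9%. It went against its label in this respect, so each test is given with all 6 libraries and again without this library, and levels averaged over control replicates 2 and 3 are named as such. The second fit was planned as one of the leave-one-out fits, but it is put forward because of that library's own levels, so its q-values understate the uncertainty. In bulk tissue, fewer methylated cells and fewer methylated copies per cell cannot be told apart.

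The stretches on which the results turn are printed here in the direction of each gene, with the CpGs measured in all 6 libraries in capitals (GRCm38, reference FASTA of GRCm38.p6). The first is the methylated stretch before the upstream 5′ end of Atf3 at chr1:191218311-191218450 (minus strand), and the second lies in the unmethylated CpG island before the internal 5′ end of the same gene at chr1:191183946-191184023 (minus strand). They show how differently CpGs are spaced in the 2 stretches: 6 measured CpGs in 140 bp against 9 in 78 bp.
Atf3 upstream 5′ end: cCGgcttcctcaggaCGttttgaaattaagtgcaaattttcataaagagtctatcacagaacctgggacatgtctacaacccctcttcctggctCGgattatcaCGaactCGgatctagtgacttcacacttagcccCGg
Atf3 internal island: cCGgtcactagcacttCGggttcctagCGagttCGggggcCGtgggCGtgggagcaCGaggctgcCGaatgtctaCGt

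Stretches from 4 gene bodies that were methylated in control replicates 2 and 3 are shown because they hold measured CpGs of the 4 bodies called without control replicate 1. Those of Ddit3 (chr10:127295920-127295968, plus strand), Trib3 (chr2:152339817-152339855, minus strand) and Asns (chr6:7677231-7677260, minus strand) lie in coding exons, and that of Eif2ak3 (chr6:70895637-70895804, plus strand) in an intron.
Ddit3 coding exon: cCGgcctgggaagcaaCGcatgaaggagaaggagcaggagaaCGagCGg
Trib3 coding exon: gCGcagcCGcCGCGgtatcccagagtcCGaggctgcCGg
Asns coding exon: cCGggcCGacCGcactactgctgcacaCGg
Eif2ak3 intron: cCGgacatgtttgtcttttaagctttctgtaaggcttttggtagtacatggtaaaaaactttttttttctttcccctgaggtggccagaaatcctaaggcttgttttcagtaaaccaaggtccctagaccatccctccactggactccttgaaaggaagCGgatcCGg

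The Atf3 promoter was the methylated exception among the measured promoters. Over its 6 cytosines, which lie at positions -410 to -273 from the annotated 5′ end, the level was 83.3% in control replicate 2 (95% Wilson interval 71.97 to 90.7, 60 reads) and 82.1% in control replicate 3 (74.4 to 87.9, 123 reads). The cKOs were at 44.8% (37.5 to 52.2, 172 reads), 34.5% (26.4 to 43.7, 113 reads) and 19.6% (14.3 to 26.4, 163 reads). The library labelled control replicate 1 was at 9.93% (6.01 to 15.98, 141 reads), below every cKO. These intervals cover counting error only.

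Values after ± are SDs, with n = 2 for control replicates 2 and 3 and n = 3 for cKOs. By group, the Atf3 promoter was at 82.7% ± 0.862 for control replicates 2 and 3, against 33.0% ± 12.6 for cKOs. With all 3 controls their mean was 58.5% ± 42.0. The groups did not overlap without control replicate 1 and overlapped with it. No test is given, because this level chose the gene. Within the stretch, the cytosine at position -396 differed most between these 2 controls, at 28.6% of 7 reads in control replicate 2 and 85.7% of 14 reads in control replicate 3, while the other 5 were at 62.5% to 100% in both.

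The other 8 measured promoters carried almost no 5mC in any library. Eif2ak3 (41 cytosines) lay at 0.570%, 0.172% and 0.272% in the 3 controls and 0.282%, 1.23% and 1.27% in the 3 cKOs. Ddit3 (13 cytosines) was at 0.465%, 0.389% and 1.42% in controls and 0.730%, 2.80% and 2.95% in cKOs, the highest values among them. Hspa5 (28 cytosines) was at 0.398% to 0.745% in controls and 0.959% to 1.55% in cKOs, Atf4 (27) at 0.653% to 1.09% and 0.610% to 0.869%, Xbp1 (22) at 0% to 0.615% and 0% to 1.13%, Chac1 (20) at 0.641% to 1.39% and 1.12% to 2.10%, Sesn2 (8) at 0% to 0.990% and 0% to 1.05%, and Trib3 (6) at 0% to 0.806% and 0.455% to 1.42%. The 6 of these values that were 0 allow levels of up to 0.949% to 2.88%, the share that 3 reads would give.

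**Figure D1:**
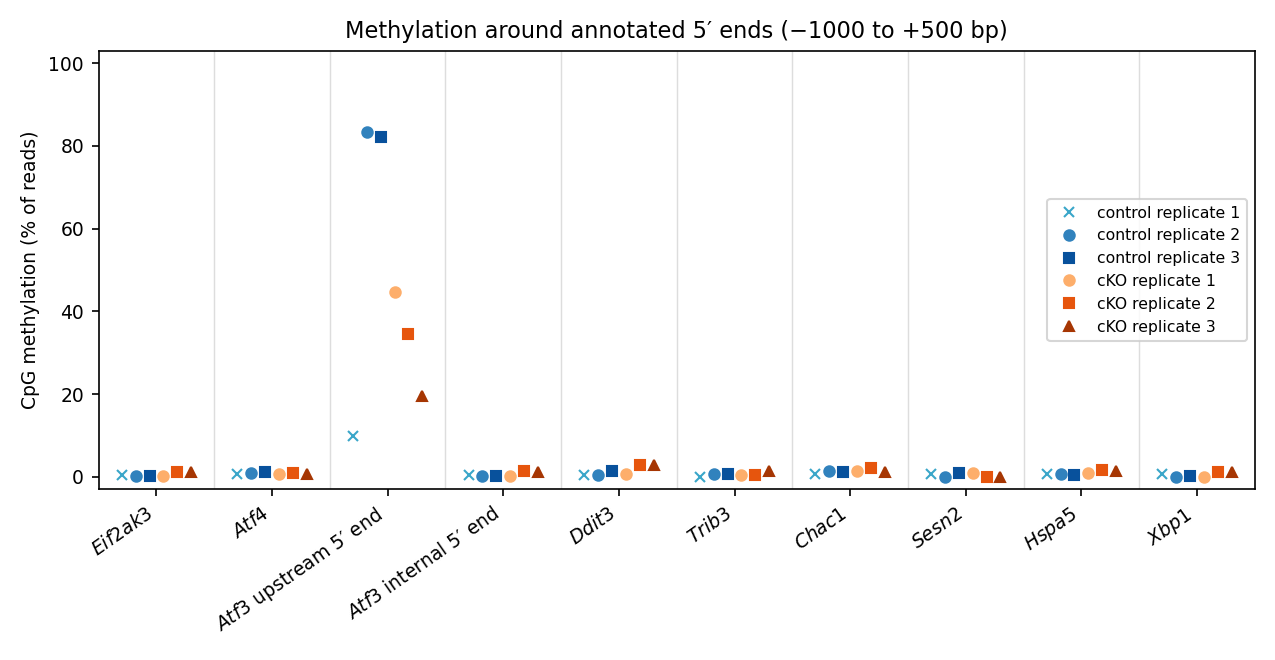
Percent of reads methylated (vertical axis) from 1000 bp before to 500 bp after the annotated 5′ ends of 9 members, Atf3 at both its ends, with 1 point per library: blue for the 3 controls (the cross is control replicate 1) and orange for the 3 cKOs. The upstream 5′ end of Atf3 reads 83.3% and 82.1% in control replicates 2 and 3, and every other 5′ end stays under 3%.

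Groups were compared on methylated and total reads per region, with q the Benjamini-Hochberg adjusted p over all regions of a kind, and a region was called at q under 0.01 and a difference of 25 points or more. A promoter near 0 cannot fall by 25 points. With all 6 libraries, 0 of these 8 promoters were called by the quasi-binomial test, 0 had an unadjusted p under 0.05, and 0% of all 11787 promoters were called (2.21% had an unadjusted p under 0.05; the limma alternative also called none). Without control replicate 1, 0 of 8 were called against 0.806% of all promoters. Their median difference, cKO minus control, was 0.50 points, beside 0.44 points over all promoters.

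The promoter values of cKO replicates 2 and 3 were somewhat above those of the other libraries, cKO replicate 1 included. The median of the 8 promoters was 1.17% and 1.20% in cKO replicates 2 and 3 and 0.494% to 0.898% in the other libraries. Over the 9420 promoters under 5% in every library, the medians were 1.39% and 1.35% in cKO replicates 2 and 3 and 0.451% to 0.529% elsewhere. Mitochondrial cytosines, which serve as an outside reading, were at 3.63% and 3.30% in those 2 libraries and at 0.910% to 1.14% in the other 4. The part of this in the promoter values was not tested.

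Asns was the member whose promoter could not be measured across all libraries. It had no cytosine shared by all 6, but 2 to 6 were listed in each of 5 libraries and none in cKO replicate 2. Those read 0% of 32, 22, 14 and 44 reads in control replicates 1 and 2 and cKO replicates 1 and 3, and 3.70% of 27 reads in control replicate 3. The zeros allow up to 6.82% to 21.4%.

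Atf3, which encodes a stress-induced transcription factor, has 2 annotated 5′ ends with very different methylation. The methylated end, at chr1:191218039, belongs to the longer transcript, whose first exon (chr1:191217870-191218039) is non-coding. The other end lies 34699 bp further down the gene at chr1:191183340. Both coding transcripts have support level 1 and the same coding sequence in GENCODE M21. RefSeq places the start of Atf3 34706 bp downstream of the GENCODE 5′ end, close to the internal end.

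Around the internal Atf3 end, 30 cytosines, all in a computed CpG island, read 0.395%, 0.181% and 0.195% in the controls and 0.140%, 1.39% and 1.24% in the cKOs. The levels there lay in the range of the other members' promoters, and cKO replicates 2 and 3 were again the highest. In control replicates 2 and 3 the upstream end was thus at 82.7% where the internal end was at 0.188%. With promoters placed at the internal end, all 9 members with a measured promoter have an unmethylated 5′ end.

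The remaining Atf3 cytosines fall into short stretches along the gene. A stretch of 6 cytosines 1147 to 1614 bp after the upstream 5′ end was lower towards the far end. The first cytosine read 25%, 81.0% and 84.9% in controls, against 34.2%, 29.7% and 21.8% in cKOs. The fourth read 0%, 2.63% and 0% in controls. In the intron 24668 to 24768 bp after it, 3 cytosines were at 80.8% ± 3.59 for control replicates 2 and 3, against 41.9% ± 12.5 for cKOs, with control replicate 1 at 22.5%. In the last exon, outside the coding sequence, 1 cytosine was at 76.1% ± 0.562, against 24.9% ± 3.19, with control replicate 1 at 18.2%. By contrast, the 3 stretches of 32, 16 and 9 cytosines between 32901 and 36025 bp, in and beside the island, had means of 0.281% to 2.20% for control replicates 2 and 3, against 0.954% to 3.43% for cKOs.

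**Figure D2:**
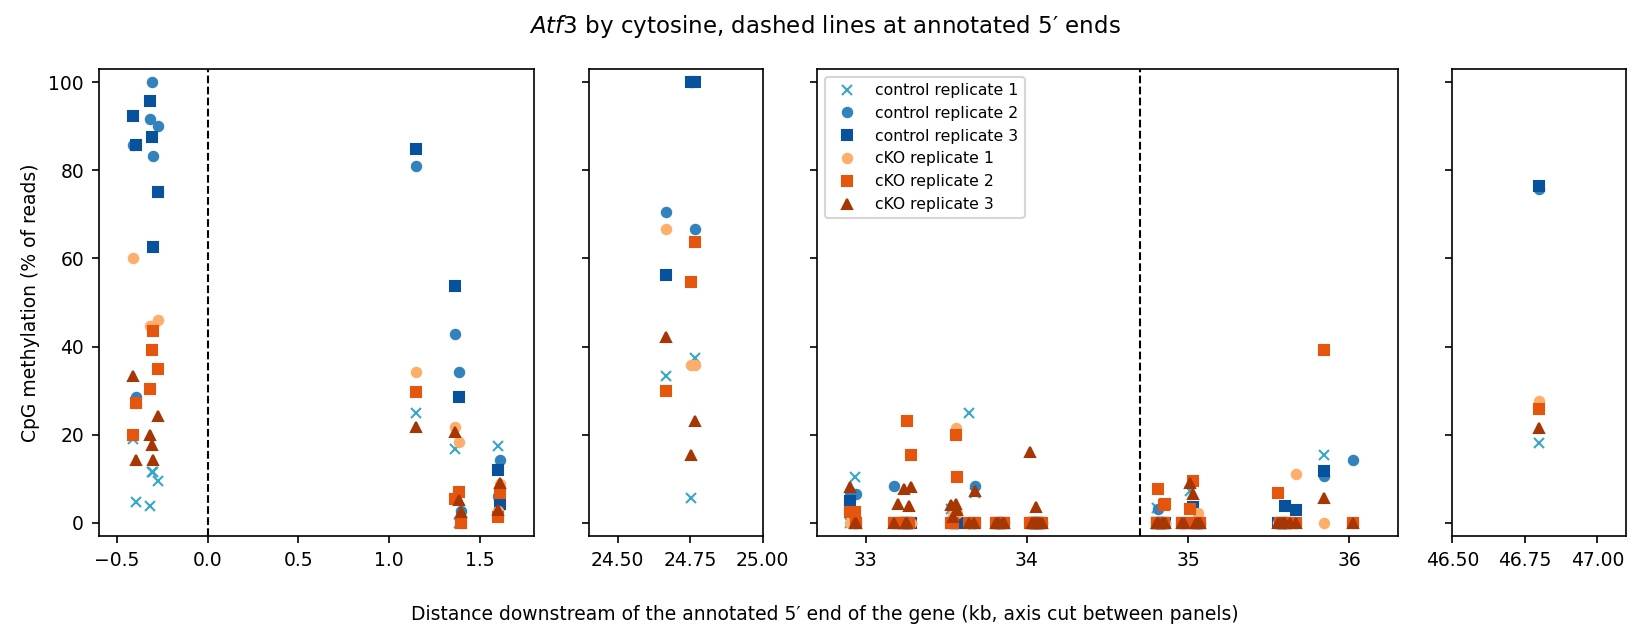
Percent of reads methylated at each shared Atf3 cytosine, 6 in the promoter and 67 in the body (vertical axis) by distance from the upstream 5′ end in kb (horizontal axis, cut between panels), with 1 point per library and dashed lines at the 2 annotated 5′ ends. Cytosines beside the upstream end reach 100% in control replicate 2, while most of those around the internal end are near 0% in all libraries.

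Because island cytosines dominate it, the Atf3 body as a whole had a low level. It read 3.66%, 10.99% and 8.86% in controls and 4.47%, 6.37% and 3.82% in cKOs over 67 cytosines, 60 of them in islands. The difference was -2.95 points with all libraries (q = 0.382) and -5.04 points without control replicate 1 (q = 0.0079), short of the 25 points set for a call.

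Upstream flanks held shared cytosines in 5 members. Xbp1, whose spliced RNA encodes the transcription factor of the IRE1 arm, was at 40.8%, 85.0% and 84.8% in controls and 36.5%, 30.3% and 23.2% in cKOs over 4 cytosines. Summed over the 4, all cKOs lay below all controls, including control replicate 1. This held for the 2 cytosines at positions -3785 to -3741. At the 2 from -3193 to -3190, control replicate 1 (50.0%) lay below cKO replicates 1 and 2 (59.0% and 56.8%). Trib3, an ATF4 and CHOP target that binds the kinase AKT, was at 13.1%, 64.7% and 54.8% in controls and 28.1%, 21.7% and 15.0% in cKOs over 4 cytosines, and control replicate 1 lay below the cKOs. With all 6 libraries, Xbp1 differed by -40.2 points (q = 0.257) and Trib3 by -22.6 points (q = 0.287).

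Without control replicate 1 both were called lower, Xbp1 by -54.9 points (q = 3.84e-06) and Trib3 by -38.1 points (q = 3.12e-05). These were 2 of the 4 flanks tested, where 52.5% of all 3669 flanks were called lower in that fit and 0% with all libraries. A level of 25% or more in control replicates 2 and 3 was reached by 3 of the 4, beside 62.3% of all flanks. With all libraries, 1 of 4 member flanks had an unadjusted p under 0.05, beside 19.4% of all flanks, and limma on logit levels called 0%. Sesn2, which encodes an inhibitor of mTORC1 signalling induced by stress, was at 0%, 27.2% and 48.0% in controls against 25.2%, 11.9% and 5.61% in cKOs over 3 cytosines. The 0% rests on 48 reads and allows up to 6.25%. Its difference was -23.4 points without control replicate 1 (q = 0.0546) and -10.8 points with it (q = 0.666).

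Chac1, which encodes an enzyme that degrades glutathione, had only 2 flank cytosines and was not fitted. They read 36.0%, 95.5% and 100% in controls and 42.7%, 40.8% and 37.5% in cKOs, with 18 to 75 reads per library. The Ddit3 flank, 21 cytosines of which 18 lie in a CpG island, stayed at 0% to 0.339% in controls and 0.174% to 1.71% in cKOs. Eif2ak3, Atf4, Atf3, Asns and Hspa5 had no shared cytosine there.

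By their measured cytosines, gene bodies separated into a methylated set and a set with low levels. Among the methylated, the kinase gene Eif2ak3 read 23.0%, 68.7% and 67.7% in controls and 28.9%, 26.1% and 17.8% in cKOs over 14 cytosines. Ddit3, which encodes CHOP, read 19.3%, 85.9% and 85.0% in controls and 32.9%, 22.2% and 20.2% in cKOs over 9 cytosines. Trib3 read 22.4%, 83.1% and 82.8% in controls and 31.3%, 34.9% and 20.5% in cKOs over 23 cytosines. Asns, the asparagine synthetase gene and a target of ATF4, read 26.1%, 85.2% and 86.4% in controls and 34.1%, 36.1% and 29.5% in cKOs over 10 cytosines. In these 4 genes control replicate 1 lay among or below the cKOs, and control replicates 2 and 3 lay far above them.

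Chac1 read 31.1%, 78.3% and 78.2% in controls and 53.3%, 24.3% and 28.3% in cKOs over 4 cytosines, which rest on 30 to 78 reads per library. The cKO spread of Chac1, an SD of 15.7 points, was the widest of the 9 bodies measured.

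Sesn2, Atf4 and Xbp1 had low levels in the measured parts of their bodies, which lay mostly or wholly in CpG islands. Sesn2 read 1.82%, 7.52% and 18.4% in controls and 2.84%, 2.97% and 2.08% in cKOs over 4 cytosines, of which the single cytosine outside an island was at 64.7% ± 8.32 for control replicates 2 and 3, against 15.6% ± 0.430 for cKOs, with control replicate 1 at 16.7%. Atf4, the central factor of the eIF2alpha arm, read 1.02%, 4.11% and 7.44% in controls and 2.49%, 6.52% and 2.12% in cKOs over 14 cytosines, and the groups overlapped with and without control replicate 1. All 14 were in islands. Xbp1 stayed at 0.260% to 0.474% in controls and 0% to 1.09% in cKOs over 7 cytosines. All 7 were in islands, 862 to 1054 bp after the 5′ end, so the rest of that body was not measured. The Hspa5 body had no shared cytosine.

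**Figure D3:**
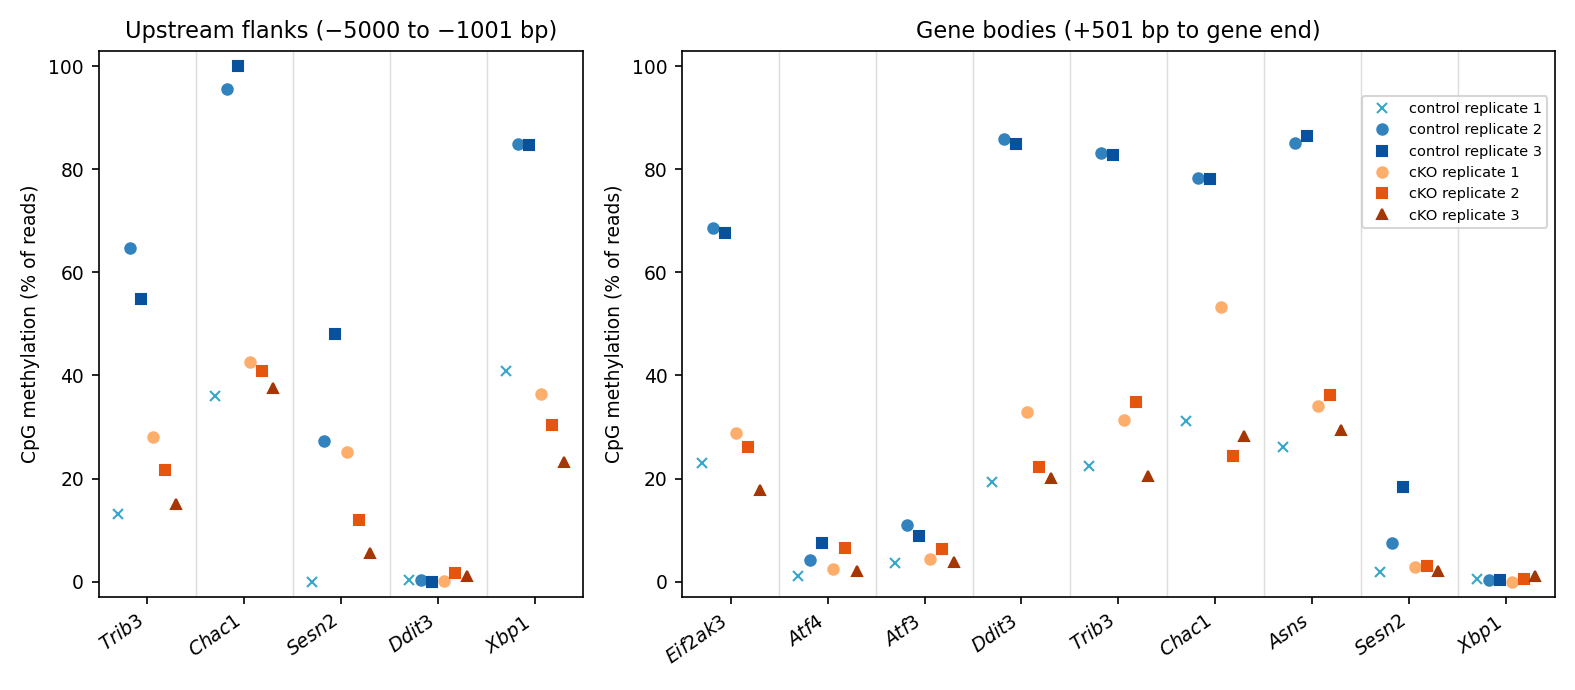
Percent of reads methylated (vertical axis) in the upstream flanks of 5 members (left) and the bodies of 9 (right), with 1 point per library: blue for controls (the cross is control replicate 1) and orange for cKOs. Control replicates 2 and 3 sit near 85% in the bodies of Ddit3 and Asns, where the cKOs sit between 20.2% and 36.1% and control replicate 1 lies below them.

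With all 6 libraries no member body was called, nor was any body in the genome. The differences were -38.3 points for Ddit3 (q = 0.213), -33.9 for Trib3 (q = 0.213), -32.7 for Asns (q = 0.213), -28.9 for Eif2ak3 (q = 0.214) and -27.2 for Chac1 (q = 0.412). At an unadjusted p under 0.05 there were 2 of 9, beside 21.9% of all 13394 bodies, and limma on logit levels called 0 of the 9 and 0.0224% of all bodies. The controls' SD, which includes control replicate 1, was 26.1 to 38.2 points in these 5 bodies.

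Without control replicate 1, 4 of 9 member bodies were lower in cKOs, beside 57.7% of all bodies. The differences were -60.3 points for Ddit3 (q = 1.29e-05), -54.1 for Trib3 (q = 4.68e-06), -52.6 for Asns (q = 3.5e-06) and -43.9 for Eif2ak3 (q = 5.27e-05). Chac1 differed by -42.9 points but did not pass the threshold (q = 0.0133). The other bodies differed by -10.3 points (Sesn2, q = 0.0723), -2.07 (Atf4, q = 0.529) and 0.27 (Xbp1, q = 0.723). The median over the 9 was -42.9 points, beside -32.0 over all bodies.

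Put as a share of the level in control replicates 2 and 3, Ddit3 kept 29.4%, Trib3 34.8%, Eif2ak3 35.6%, Asns 38.7% and Chac1 45.1%. Over the 10007 bodies at 25% or more in those controls, the median share was 41.1%, with quartiles of 36.9% and 46.3%. Ddit3, Trib3 and Eif2ak3 thus lie below the lower quartile and the other 2 inside the quartiles. The Xbp1 flank kept 35.3%, the Sesn2 flank 37.9%, the Trib3 flank 36.2% and the Atf3 promoter 39.9%, against medians of 39.2% over flanks and 41.9% over promoters chosen by the same level.

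**Figure D4:**
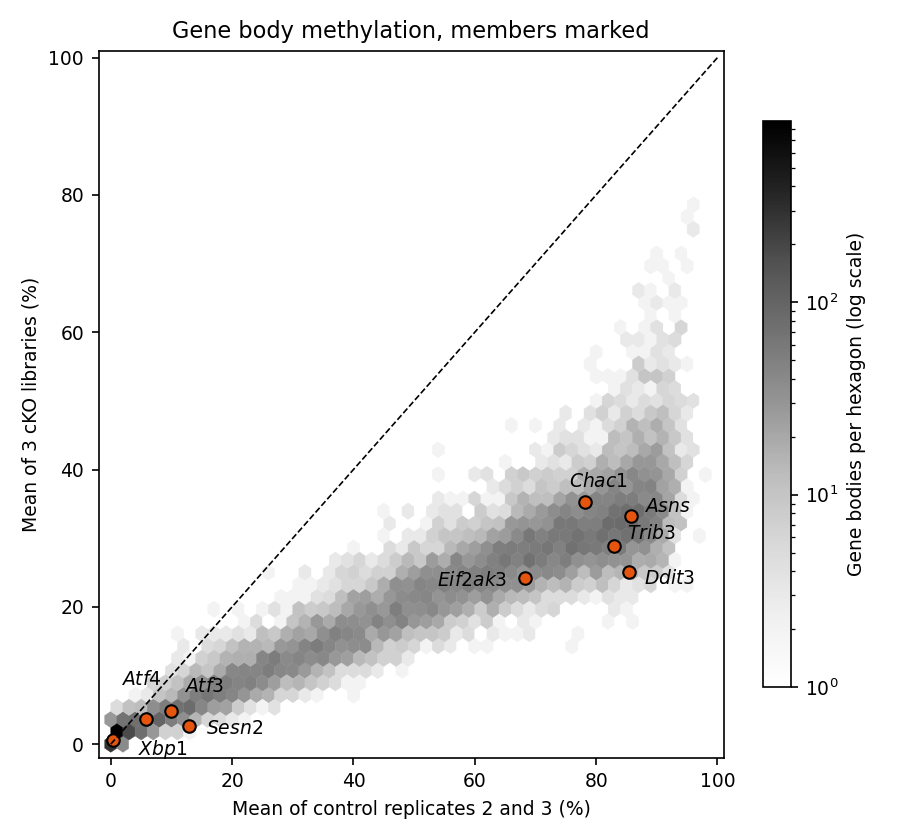
Mean body methylation in the 3 cKO libraries (vertical axis, percent) against the mean of control replicates 2 and 3 (horizontal axis, percent) for all 13394 bodies, as grey hexagons shaded by the number of genes on a log scale, with 9 members as orange points and equality as a dashed line. The members follow the band of all bodies: Ddit3, at 85.4% and 25.1%, is near its lower edge, and Xbp1, Atf4, Atf3 and Sesn2 are near the origin.

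Trib3, Asns and Eif2ak3 had several methylated stretches in their bodies, and these were lower in cKOs than in control replicates 2 and 3. In Trib3, the stretch of 14 cytosines starting 3866 bp after the 5′ end was at 86.7% ± 1.64 for control replicates 2 and 3, against 29.2% ± 8.97 for cKOs, with control replicate 1 at 23.2%. The 7 cytosines in the last exon beyond the coding sequence were at 84.3% ± 1.16, against 27.6% ± 6.95, with control replicate 1 at 15.6%. In Asns, 3 intronic cytosines from 4465 bp on were at 80.5% ± 1.36, against 30.0% ± 2.95, with control replicate 1 at 19.9%. A further 5 cytosines from 15995 bp on were at 89.3% ± 1.22, against 39.97% ± 5.28, with control replicate 1 at 33.6%. In Eif2ak3, 7 cytosines from 48534 bp on were at 90.6% ± 4.78, against 44.8% ± 19.3, with control replicate 1 at 36.2%. Its 4 intronic cytosines from 51123 bp on were at 87.96% ± 1.74, against 33.4% ± 4.83, with control replicate 1 at 32.5%. The 2 Eif2ak3 cytosines from 967 bp on were low in both groups, at 4.17% ± 5.89 against 1.01% ± 1.75, and the methylated cytosines of the Ddit3 and Chac1 bodies formed 1 stretch each.

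**Figure D5:**
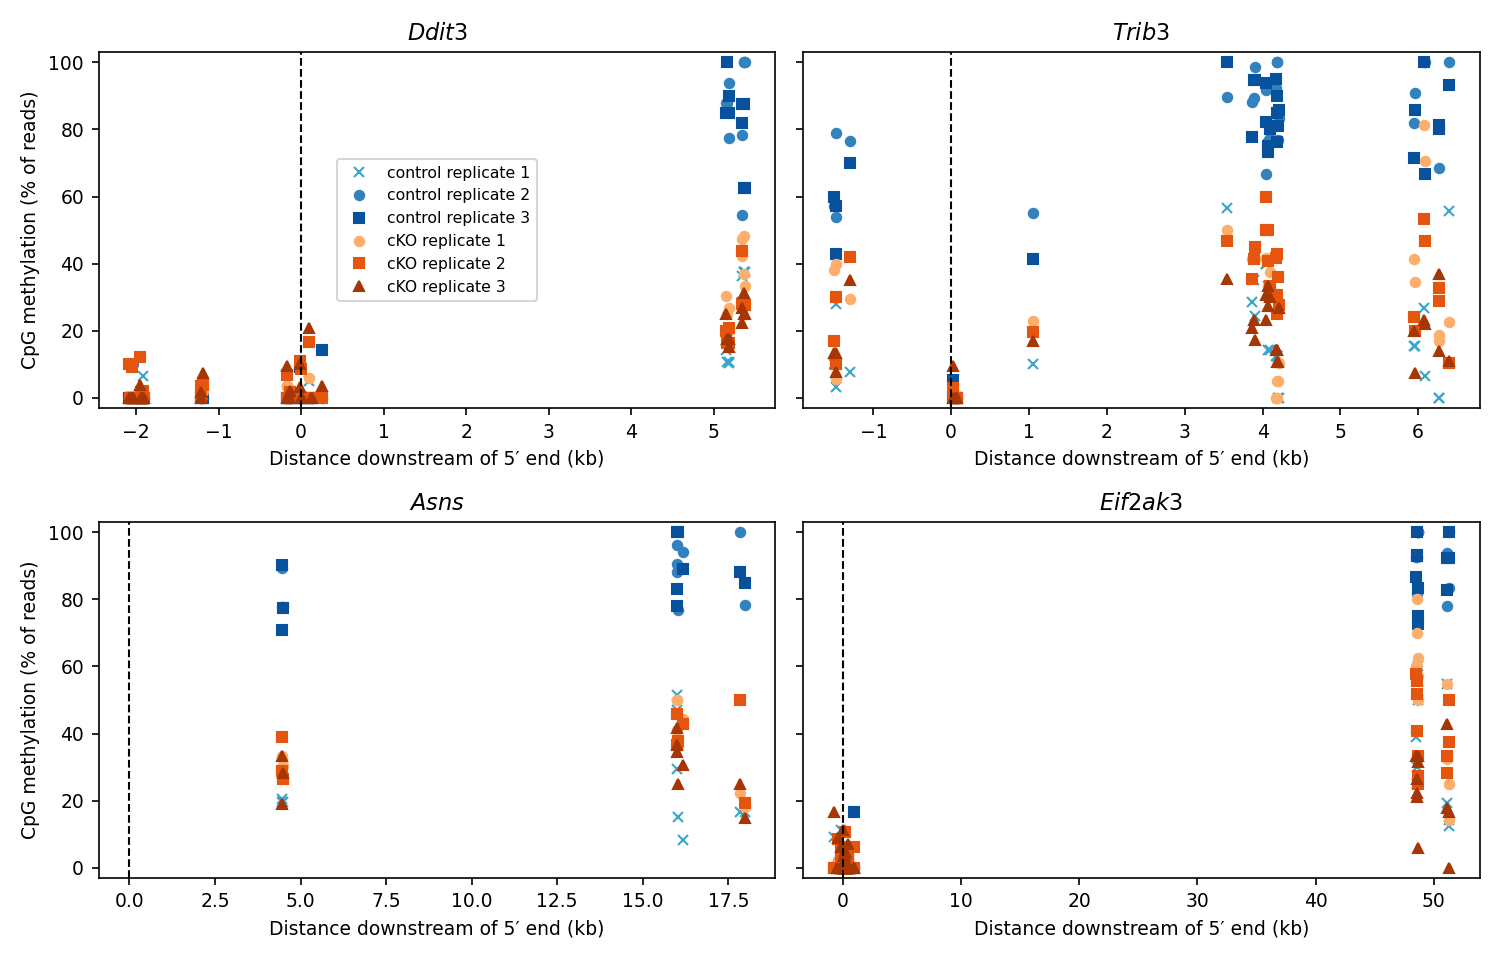
Percent of reads methylated (vertical axis) at each shared cytosine of Ddit3, Trib3, Asns and Eif2ak3 by distance from the 5′ end in kb (horizontal axis, dashed line at the 5′ end), with 1 point per library. Cytosines in the promoters of Ddit3, Trib3 and Eif2ak3 are low in all libraries, and those further along the genes are mostly higher in control replicates 2 and 3 than in the other 4 libraries. The 4 Trib3 cytosines upstream of its promoter together read 64.7% and 54.8% in control replicates 2 and 3.

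Fixed windows of 100 bp gave a finer view of the same loci. With all 6 libraries, 0 of the 115 windows in the members were called, beside 0% of all 285466 windows, and 15 had an unadjusted p under 0.05, beside 15.3% of all. Without control replicate 1, 33 of 115 were lower and 0 higher, beside 44.1% and 0.0028% of all windows. Only windows at 25% or more in control replicates 2 and 3 could be called lower, and 40 of the 115 were. Of these 82.5% were lower, beside 67.4% of all windows at that level. Trib3 had 10 of its 13 windows lower, Atf3 5 of 27, Asns 4 of 5, Chac1 4 of 10, Eif2ak3 4 of 15, Xbp1 3 of 10, Ddit3 2 of 12 and Sesn2 1 of 5. Hspa5 had 0 of 7 and Atf4 0 of 11.

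The named windows are at most 2 per member, those that differed most without control replicate 1 among windows with at least 20 reads in every library. They were thus picked for their size and are not typical of the loci, and their q-values come from that fit unless stated. Among them, those in the printed Trib3 and Ddit3 stretches differed most. In the Trib3 coding exon, the level fell by 70.0 points (q = 2.43e-07), from 89.6% and 85.4% in control replicates 2 and 3 to 3.36%, 34.0% and 15.1% in cKOs, and control replicate 1 was at 8.33%. In the Ddit3 coding exon it fell by 67.5 points (q = 4.48e-10), from 86.7% and 89.9% to 25.4%, 18.4% and 18.6%, and control replicate 1 was at 11.5%. The Asns windows differed by -50.5 points in an intron (q = 1.69e-08) and by -49.1 points in the coding exon (q = 8.51e-09). In Atf3, the cytosine 1147 bp after the upstream end fell by 54.3 points (q = 1.59e-05). All of these had q = 0.320 with 6 libraries. In Atf4, the window with the largest difference was at 32.1% and 27.1% in control replicates 2 and 3, against 13.9%, 20% and 5.00% in cKOs, and was not called (q = 0.112).

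Cytosines inside and outside CpG islands differed in their mean level, but the division was not complete. Of the 357, 289 lay in computed islands, and these averaged 2.75%, 8.68% and 8.46% in controls and 3.18%, 4.65% and 3.49% in cKOs. The 68 outside islands averaged 19.8%, 67.5% and 67.7% in controls and 34.7%, 28.6% and 19.1% in cKOs. In control replicates 2 and 3 together, 255 cytosines were under 5%, 78 at 50% or more and 24 between. Of the 78, 27 lay in islands and 51 outside. The 9 methylated Ddit3 body cytosines were all in computed islands. Computed islands were many, 188408 in the genome, and held 367173 of the 646645 shared cytosines. A cytosine in one is thus not shown to lie in a CpG island of a stricter kind. Cytosines in coding exons averaged 36.6% in those controls and 13.8% in cKOs (59 cytosines), those in introns 19.9% and 8.53% (81), those in exons outside coding sequence 15.9% and 6.90% (117), and those upstream 14.4% and 6.43% (100). Control replicate 1 was at 8.94%, 6.68%, 5.73% and 4.01% in these parts, in the same order. Island cytosines were included in all 4 of these averages.

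Known DNA response elements of the pathway were searched for in the 10 promoters, on both strands. For Atf3 this was the promoter of the upstream 5′ end, and the internal end was not searched. The endoplasmic reticulum stress response element (ERSE, CCAAT and CCACG with any 9 bases between) was found in Hspa5 at chr2:34772025-34772043 and in Xbp1 at chr11:5520906-5520924, and in 0.182% of all 21938 promoters. The match in Hspa5 starts 55 bp and that in Xbp1 247 bp after the GENCODE 5′ end. RefSeq places the start of Hspa5 120 bp downstream of the GENCODE end, at chr2:34772090, so the Hspa5 match lies upstream of the RefSeq start. The Xbp1 match lies downstream of both its GENCODE and its RefSeq start. They are printed here, plus strand, with the 2 fixed parts in capitals.
Hspa5 ERSE: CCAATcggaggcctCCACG
Xbp1 ERSE: CCAATcgcggacggCCACG

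The Xbp1 element was the only match with shared cytosines. Its 4 cytosines were read 60 to 236 times per library with 0 methylated reads in any of the 6, which allows up to 1.27% to 5.00%. The core of the unfolded protein response element (UPRE, TGACGTG) was found in Hspa5 and Chac1, and in 5.90% of all promoters. The CEBP-ATF response element (CARE, TTGCATCA) was found in Chac1 at position -180 and in Ddit3 at position -282, and in 3.58% of all promoters. The cAMP response element (CRE, TGACGTCA), found in 3.65% of all promoters, had no match in the 10, the internal Atf3 end not being among them. The UPRE core overlaps the first bases of that element. A match shows only that these letters are in this window.

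Of all 10593 other promoters with at least 5 cytosines, the levels most like those of Atf3 over the 6 libraries were those of Gm49322 (root mean square difference 2.83 points), Pabpc1l (5.76) and Oser1 (6.18). The annotated gene Gm49322 read 10.2%, 81.1% and 86.5% in controls and 41.3%, 32.6% and 16.9% in cKOs.

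Further genes of the pathway were taken from 5 lists of 70 genes in all. None of their 57 measured promoters reached 25% in control replicates 2 and 3, and 0 were called with all libraries or without control replicate 1. The highest was Derl3, which encodes a derlin of endoplasmic reticulum-associated degradation, at 15.1% in control replicates 2 and 3. With all 6 libraries 0 of the 58 measured bodies were called, and 9 had an unadjusted p under 0.05, where 21.9% of all bodies did.

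Without control replicate 1, 24 of these 58 bodies were lower and 0 higher, beside 57.7% of all bodies lower. A level of 25% or more in control replicates 2 and 3 was reached by 29 of the 58, beside 74.7% of all bodies. The list of stress sensors and eIF2alpha kinases also holds Eif2s1, Ppp1r15a and Ppp1r15b, which are neither. Of its bodies, 7 of 10 were lower, Ppp1r15a among them. They were led by Eif2ak4 (GCN2, the amino acid sensing kinase) at 86.4% ± 1.43 against 33.6% ± 5.98 (q = 2.85e-05) and Atf6 (a membrane-bound sensor) at 80.3% ± 2.47 against 30.1% ± 6.56 (q = 1.53e-05). Of the chaperones and folding enzymes, 8 of 14 were lower, with Dnajb11 (a co-chaperone of BiP) at 91.0% ± 0.457 against 32.5% ± 6.27 (q = 5.47e-06) and Pdia4 (a protein disulfide isomerase) at 85.0% ± 1.15 against 35.4% ± 3.43 (q = 2.35e-05). The value before each "against" is that of control replicates 2 and 3.

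In the same fit, 3 of 7 genes of endoplasmic reticulum-associated degradation were lower, with Derl1 at 79.4% ± 5.44 against 28.3% ± 3.02 (q = 0.000108) and Os9, a lectin, at 68.1% ± 0.185 against 30.5% ± 4.66 (q = 6.77e-05). Of the ATF4 targets and amino acid response genes, 3 of 17 were lower, among them Shmt2 (mitochondrial serine hydroxymethyltransferase) at 75.5% ± 5.27 against 33.8% ± 3.07 (q = 1.24e-05) and Gpt2 (an alanine aminotransferase) at 68.9% ± 7.07 against 31.8% ± 3.88 (q = 8.37e-05). Of the heat shock and oxidative stress genes, 3 of 10 were lower, with Dnajb1 at 54.5% ± 6.99 against 19.6% ± 5.52 (q = 0.000158) and Txnrd1 (thioredoxin reductase) at 57.1% ± 0.197 against 25.1% ± 4.97 (q = 8.04e-06). The lists differ in how many bodies could fall. A level of 25% or more in control replicates 2 and 3 was reached by 7 of 10 bodies of the sensor and kinase list and 9 of 14 of the chaperone list. It was reached by 5 of 17 of the ATF4 target list, 3 of 7 of the degradation list and 5 of 10 of the heat shock list. With all libraries, q was 0.213 to 0.240 for the genes named here.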

How the data were processed

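Ox-RRBS of 6 E16 cortex libraries, 3 controls and 3 cKOs, was analysed. The authors digested DNA with MspI, oxidized it with KRuO4, converted it with bisulfite and mapped reads to GRCm38, dropping positions of low coverage; the submitters' processing notes name methylKit. The deposited tables give, per CpG cytosine, the read count (coverage) and the percent of reads methylated, and the authors did not pool libraries. Methylated reads were recomputed as coverage times percent, and the strands of a CpG were kept apart. Cytosines with at least 6 reads in all 6 libraries were summed per promoter, flank and body (3 cytosines or more) and per 100 bp window, with positions from the 5′ ends of GENCODE M21 (the longer of 2 Ddit3 entries).

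Groups were compared by a quasi-binomial F test with the dispersion moderated by limma's method (prior from features of 5% to 95% pooled level, floor of 1) and Benjamini-Hochberg adjustment over all features of a kind. A call needed q under 0.01 and 25 points. The test was tested on simulated data. Islands were computed from the sequence as merged windows of 200 bp with at least 50% GC and an observed to expected CpG ratio of at least 0.6. "CpG island" means such a computed island throughout. Intervals are 95% Wilson. Depth ranged from 13 to 17 reads at the median cytosine, so levels of single cytosines are coarse. Alternatives changed the coverage minimum, libraries, block, dispersion, test, chromosomes, threshold, promoter and islands. The members and lists were chosen with earlier results of these data known. Named were all members, the 2 bodies per list that fell most among those called with at least 5 cytosines and 50 reads in each library (in the fit without control replicate 1), and the 3 promoters nearest Atf3. Per member at most 2 windows were named, those with the largest absolute difference in that fit and at least 20 reads in each library. Python 3.11.15, numpy 2.4.6, scipy 1.17.1 and pandas 2.3.3 were used.

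Nothing in the labels pairs same-numbered libraries, and correlations of their deviations could not decide whether they are paired.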

Additional observations from a re-analysis of the deposited data

Results flagged for a closer look

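Outside the comparisons above, the CpG cytosines of mitochondrial DNA gave a reading in 2 cKO libraries above that of all 3 controls. In cKO replicate 2, 3.63% of 13732 reads were methylated, with a 95% Wilson interval of 3.33 to 3.95. For cKO replicate 3 the level was 3.30% of 17920 reads (3.05 to 3.58). The controls lay between 0.910% and 1.14%, and cKO replicate 1 lay at 0.947%. The same 2 libraries had the highest medians over the 8 member promoters with little methylation, and the part of this reading in those medians was not tested.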

How the results depend on the processing

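With all 6 libraries, 0 member flanks, bodies and windows and 0 pathway bodies were called, and the fit that left out each library in turn gave 0 to 2 flanks, 0 to 4 bodies, 0 to 33 windows and 0 to 24 pathway bodies, the higher counts only without control replicate 1. The plain binomial test, which allows no spread between libraries, called 1 flank, 5 bodies, 27 windows and 14 pathway bodies, beside 39.6% of all flanks, 35.9% of all bodies and 37.5% of all windows. Without control replicate 1 and with autosomes only, an alternative chosen after seeing the data, the counts were 2, 4, 35 and 26, and 3.63% of all promoters were lower. Member and pathway promoters stayed at 0 calls under every alternative run. With the replicate block, 0 member promoters, flanks, bodies and windows and 0 pathway bodies were called. Same-numbered libraries correlated at -0.118, 0.0865 and -0.140 in their deviations over bodies, and differently numbered ones at -0.220 to 0.235. With 3 libraries per group and control replicate 1 far from the other controls, these values cannot decide whether libraries are paired.

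The Atf3 promoter difference was -25.5 points with all libraries and -49.8 to -13.1 points leaving out each in turn, and -26.5 points at a minimum of 10 reads. It gave no value at 20 reads. The APPRIS choice left it unchanged, since both coding transcripts are principal and the upstream one was kept. Leaving out each library in turn, the Sesn2 flank difference ranged from -23.4 to 0.65 points and reversed without control replicate 3, and the Atf4 body difference ranged from -2.07 to 1.15 points and reversed without control replicate 3 (1.15), cKO replicate 1 (0.13) or cKO replicate 3 (0.32). The cause was not tested. The bodies of Chac1, Sesn2 and Xbp1 and the flanks of Trib3, Chac1, Sesn2 and Xbp1 rest on few cytosines, which limits their precision.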
